A study of Mus musculus with 6 samples.

Results

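The clustered histone genes were followed through RNA sequencing of splenic CD8+ and CD4+ cells from mice given angiotensin II. Members were all rows of the deposited table whose name has the form H1f, H2ac, H2bc, H3c or H4c with a number, or an older Hist name. The rule found 41 genes among the 17832 in the table. They comprise 7 genes for the linker histone H1, 7 for H2A, 11 for H2B, 7 for H3 and 9 for H4. Of these, 35 lie in histone cluster 1 on mouse chromosome 13 and 4 in cluster 2 on chromosome 3 of the GRCm38 build. The other 2, H1f0 on chromosome 15 and H1f10 on chromosome 6, stand outside both clusters. RefSeq lists 70 mouse symbols of these forms; those without a row in the table were not analysed here. The name "replication-dependent" therefore covers most but not all members, since H1f0 and H1f10 are replacement-type linker histones that cells also make outside S phase.

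There were 6 libraries. The CD8 group held numbers 387, 389 and 395 and the CD4 group held numbers 385, 393 and 395. Every library came from FACS-sorted spleen cells of C57BL/6 mice that received angiotensin II, a peptide hormone that raises blood pressure, through osmotic pumps under the skin. The numbers were read as mouse numbers, so that 5 mice gave 6 libraries, but the labels do not say so, and the p-values below measure only the spread between these libraries. No source used here gives age, sex, the duration of treatment or any gate besides CD8 and CD4, and no untreated library was analysed.

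As background, histones are the proteins around which DNA is wound: H2A, H2B, H3 and H4 form the core of the nucleosome and H1 binds the linker DNA. Most members are transcribed when a cell copies its DNA in S phase. Their messages, unlike nearly all others, usually end without a poly(A) tail. The 3′ end is cut just after a short hairpin, the histone stem-loop, which is bound by the stem-loop binding protein Slbp and cut with the help of the U7 small nuclear RNA. The libraries here were made with a kit that selects messages by their poly(A) tail. What was counted over most members is therefore whatever share of their RNA such a library keeps, and not the whole of their message.

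The hairpin was looked for in the annotated coding transcripts, to show which members hold it and how alike they are. The sense strand of GENCODE M21 transcripts (GRCm38) was searched for the histone stem-loop consensus, a stem of 6 base pairs around a loop of 4 bases. It was found in 29 of the 41 members, against 62 of 58797 coding transcripts (0.105%) and 53 of 21877 coding genes (0.242%) in the whole annotation. Only 2 of the 5 members with the highest values hold it, H1f2 and H4c9, against 27 of the 36 others. The annotated transcripts of H1f0, H2bc21 and H2bc4 hold no such run. H2ac14 has no annotated coding transcript, and its only transcript, of 352 bases, holds no such run either. The transcripts annotated for H2ac15, H2ac22, H2bc18, H3c11 and H4c12 are only 312 to 411 bases long, little or no longer than a coding sequence. In these genes the region after the coding sequence was therefore not searched. The hairpins of 9 members are shown 5′ to 3′ as DNA letters, from the same transcripts, with both arms of the stem in capitals and the loop and 5 bases on each side in lower case. All are on chromosome 13 except that of H4c14, which is on chromosome 3.
H1f2: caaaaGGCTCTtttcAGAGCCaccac
H1f3: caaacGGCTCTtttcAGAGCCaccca
H2bc6: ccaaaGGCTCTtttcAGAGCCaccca
H2bc3: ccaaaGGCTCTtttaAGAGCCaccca
H3c7: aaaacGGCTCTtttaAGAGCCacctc
H4c9: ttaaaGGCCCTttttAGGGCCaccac
H4c14: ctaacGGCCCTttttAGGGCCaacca
H4c3: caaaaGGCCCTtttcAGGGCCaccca
H4c2: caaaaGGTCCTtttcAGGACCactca

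The hairpins of the 29 members fell into 7 different sequences. The one of H1f2 occurred in 14 members, among them H1, H2A, H2B and H3 genes. The one of H4c3 occurred in 4 H4 genes, and H4c9 shared its own with H4c14 only. H1f2 and H1f3 have the same hairpin, but averaged 269 and 13.3 normalised reads over the 6 libraries. Per kb of annotated exon they stood at 172 and 1.79. Likewise H4c9 and H4c14 averaged 132 and 11.0 normalised reads, or 182 and 6.75 per kb. The longest annotated transcript continues past the hairpin for 840 bases in H1f2, 4884 in H1f3, 330 in H4c9 and 1257 in H4c14. Members with the same hairpin thus stood at high and at low values.

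Recovered reads per library ranged from 10264246 to 14628599, and a gene counted at 0 could stand as high as 3 reads, or 2.52 to 3.49 normalised reads. Such limits cover counting error only. Cd8a was at 8108, 3871 and 10001 normalised reads in CD8 387, 389 and 395 and between 7.45 and 36.8 in the CD4 libraries. Cd4 was at 163, 38.9 and 130 in CD8 387, 389 and 395 and at 4065, 6313 and 5402 in CD4 385, 393 and 395. Markers of other cells were abundant. The summed erythroid list, all 19 genes of it detected, spanned 80286 to 156139 in CD8 and 48981 to 111857 in CD4 libraries, and the list of 15 T cell receptor genes spanned 13856 to 45445 and 31250 to 60471. CD8 389 had the highest erythroid sum and the lowest T cell receptor sum, and CD4 393 the reverse. In such bulk samples, fewer cells of a type and less RNA per cell cannot be told apart. The summed lists of the other cell types spanned, in CD8 and then in CD4 libraries, 72900 to 135354 and 92008 to 120583 for B and plasma cells, 8601 to 22760 and 5628 to 26645 for macrophages and monocytes, 1587 to 7105 and 476 to 12261 for neutrophils, and 28011 to 42259 and 4463 to 13645 for dendritic cells. The neutrophil genes Ltf and Ly6g were at 0 in at least 1 library.

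Histone messages made up a very small share of the libraries, between 0.00834% and 0.0122% of all reads, or 940 to 1656 reads over the 41 members. In CD8 387, 389 and 395 the members summed to 1038, 1532 and 1219 normalised reads, and in CD4 385, 393 and 395 to 1133, 1188 and 1000.2. The means were 1263 ± 250.0 in CD8 and 1107 ± 96.4 in CD4 libraries (SD, n = 3 each), and the groups overlapped. The highest library stood 1.53-fold above the lowest.

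**Figure D1:**
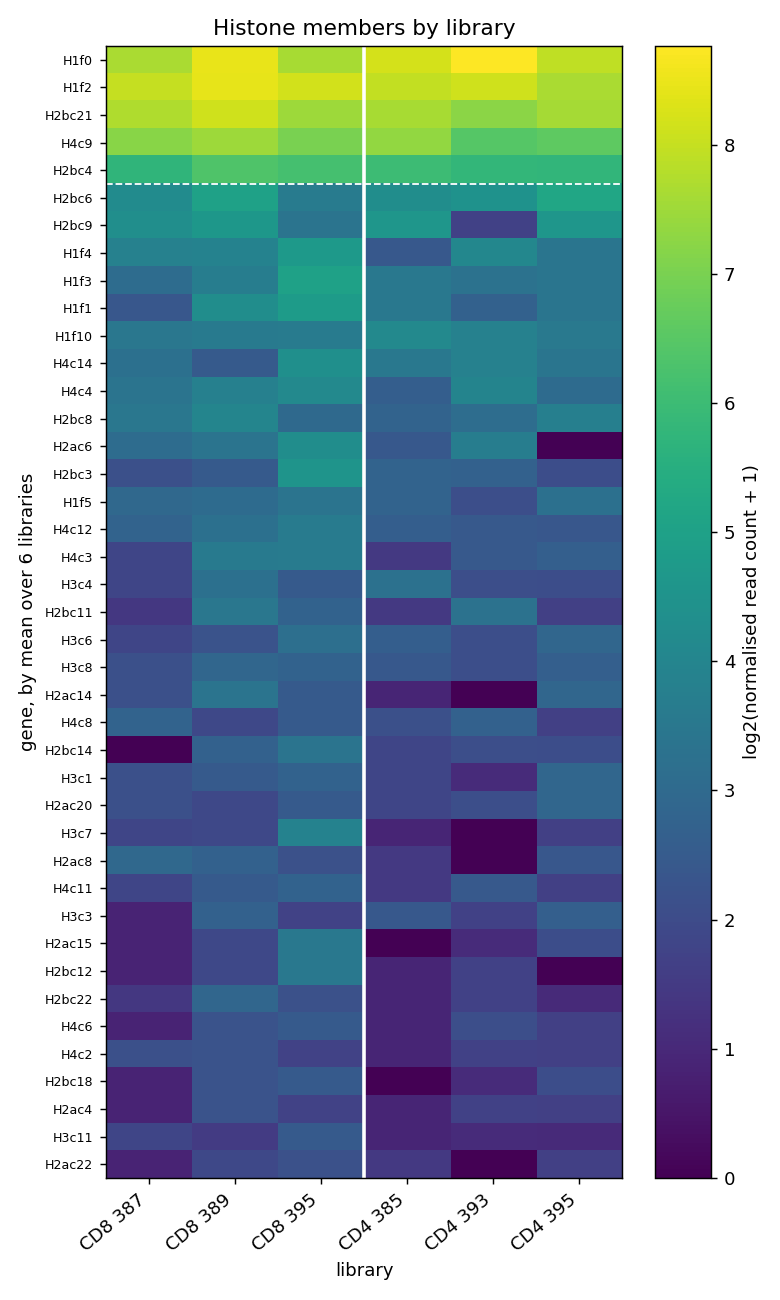
Normalised reads of all 41 clustered histone genes (rows, highest mean at the top) in each library (columns, the 3 CD8 libraries left of the 3 CD4 libraries), as colour on a log2(value + 1) scale. The 5 genes above the dashed line, drawn at a mean of 50, are high in every library, and the 36 below it are low in every library.

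A few genes carried most of that signal. H1f0, H1f2, H2bc21, H4c9 and H2bc4 averaged 287, 269, 200.3, 132 and 62.8 normalised reads over all libraries. A mean of 50, a limit drawn after the values were seen, divides these 5 from the 36 others; the nearest members on either side are H2bc4 at 62.8 and H2bc6 at 22.6. The 5 high members together made 861, 1244 and 861 normalised reads in CD8 387, 389 and 395 and 958, 1001 and 779 in CD4 385, 393 and 395. Of the 41 members, 6 to 21 had 3 or fewer reads in a library. This count was not scaled for depth and was not made over all genes.

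Levels can be compared between genes only per length, so the mean of each gene was divided by its exon length in GENCODE M21. On that scale H4c9, which encodes the core histone H4, stood highest at 182 normalised reads per kb. The linker histones H1f2 and H1f0 followed at 172 and 140, and the H2B genes H2bc21 and H2bc4 at 76.4 and 54.3. The other 36 members lay between 1.79 and 21.2 per kb with a median of 6.93; the highest of these, H4c12, has only 312 bases of annotated exon. No gene for H2A or H3 was among the high members, and the top H3 gene per kb was H3c8 at 8.99. H2A and H3 genes share much sequence with other genes, as given below, and its part in their low values was not tested. Histone variants encoded outside the clusters, whose messages mostly carry poly(A) tails, stood far above. H3f3b, for the replacement histone H3.3, was at 2223 and H2az1, for H2A.Z, at 2159 normalised reads per kb. H2ax, for the DNA-damage-linked H2A.X and the only 1 of the 9 variants with the hairpin, was at 879. Macroh2a2 was the exception among the variants, at 0.907.

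**Figure D2:**
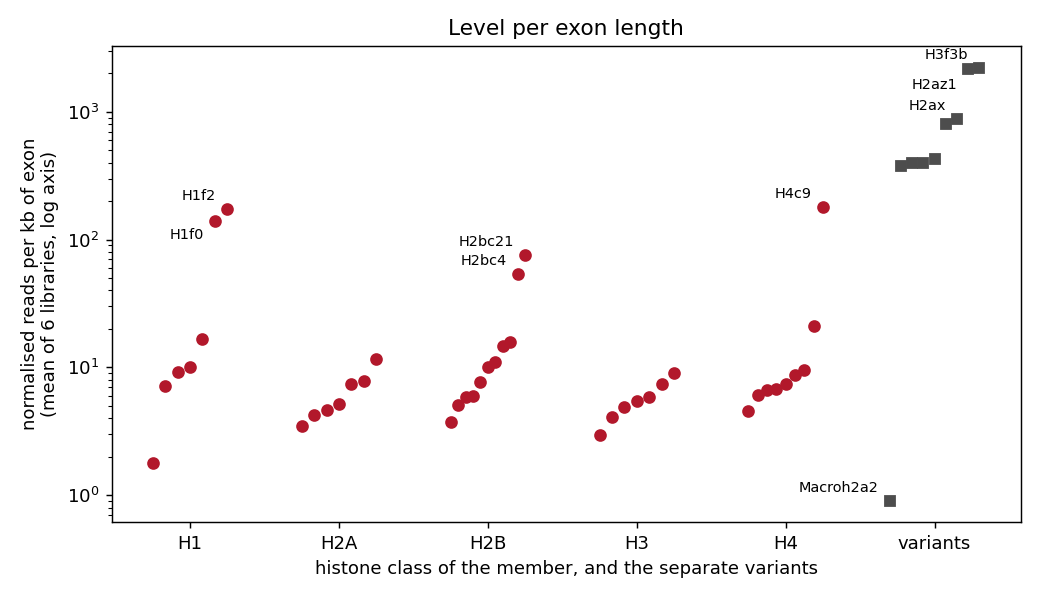
Mean normalised reads over the 6 libraries per kb of annotated exon (log axis) for each member, by histone class (red circles), and for 9 histone variants outside the clusters (grey squares). The high members run from 54.3 to 182 and the variants H3f3b and H2az1 lie above 2000.

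H1f0, the replacement linker histone of cells that divide little, was at 199, 358 and 198 normalised reads in CD8 387, 389 and 395, and at 293, 433 and 240 in CD4 385, 393 and 395. CD4 393 was highest and CD8 389 next, and the groups overlapped. The log2 fold change, CD8 over CD4 on the log2(value + 1) scale, was -0.37 (SE 0.32, 95% interval -1.11 to 0.37, limma adjusted p = 0.946).

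H1f2, a linker histone of cluster 1, was at 257, 346 and 285 in CD8 387, 389 and 395, and at 247, 276 and 201 in CD4 385, 393 and 395. CD8 389 was highest, and CD8 387 lay within the CD4 range. The log2 fold change was 0.29 (SE 0.21, 95% interval -0.20 to 0.78, limma adjusted p = 0.946).

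H2bc21, an H2B gene of cluster 2, was at 208, 280 and 179 in CD8 387, 389 and 395, and at 194, 150 and 189 in CD4 385, 393 and 395. CD8 389 was again the highest library and CD8 395 lay among the CD4 libraries. The log2 fold change was 0.30 (SE 0.24, 95% interval -0.25 to 0.86, limma adjusted p = 0.946).

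H4c9 was at 145, 179 and 128 in CD8 387, 389 and 395, and at 160, 85.8 and 94.7 in CD4 385, 393 and 395. The groups overlapped through CD4 385, the second highest library. The log2 fold change was 0.45 (SE 0.30, 95% interval -0.26 to 1.15, limma adjusted p = 0.946). H2bc4, an H2B gene of cluster 1, was at 52.0, 81.4 and 72.1 in CD8 and 63.3, 54.6 and 53.2 in CD4 libraries in the same order of numbers. CD8 387 was its lowest library and CD8 389 its highest. The log2 fold change was 0.24 (SE 0.29, 95% interval -0.43 to 0.91).

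The high members did not follow a common order of libraries. H1f2, H2bc21, H4c9 and H2bc4 were highest in CD8 389, whereas H1f0 was highest in CD4 393. For H2bc21 and H4c9, CD4 393 was the lowest library. The sum of 32 S phase genes, such as Rrm1 for ribonucleotide reductase and Mcm6 of the replicative helicase, was 71202, 120417 and 65366 in CD8 387, 389 and 395, and 87380, 41976 and 68343 in CD4 385, 393 and 395. CD8 389 and CD4 393 were thus the ends of the S phase range as well as of the erythroid range. The part of either in the histone values was not tested.

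Of the 41 members, 14 reached 10 normalised reads in at least 3 libraries and entered the test. No member was called different between CD8 and CD4 cells. At an adjusted p under 0.05 limma called 0 of 14, where it called 0.49% of all 13877 genes, 0.281% higher and 0.209% lower in CD8. By edgeR and DESeq2 0 of 14 were called as well, against 0.425% and 2.3% of all genes. At an unadjusted p under 0.05, limma gave 0 of 14 members and 5.82% of all genes. The adjusted p of the members lay between 0.946 and 0.963, and their lowest unadjusted p was 0.158. With no filter, 0 of the 41 members were called by limma, against 0.572% of all genes, and 0 were at an unadjusted p under 0.05, against 6.33%. The intervals of the members ranged from as low as -1.55, for H4c14, to as high as 2.46, for H2bc9, on the log2 scale. Those of the high members were narrower, such as -0.20 to 0.78 for H1f2. For each member, the data do not exclude differences within its own interval. The widest interval, of H2bc9, went with 2.23 normalised reads in CD4 393 against 23.1 and 23.4 in CD4 385 and 395.

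**Figure D3:**
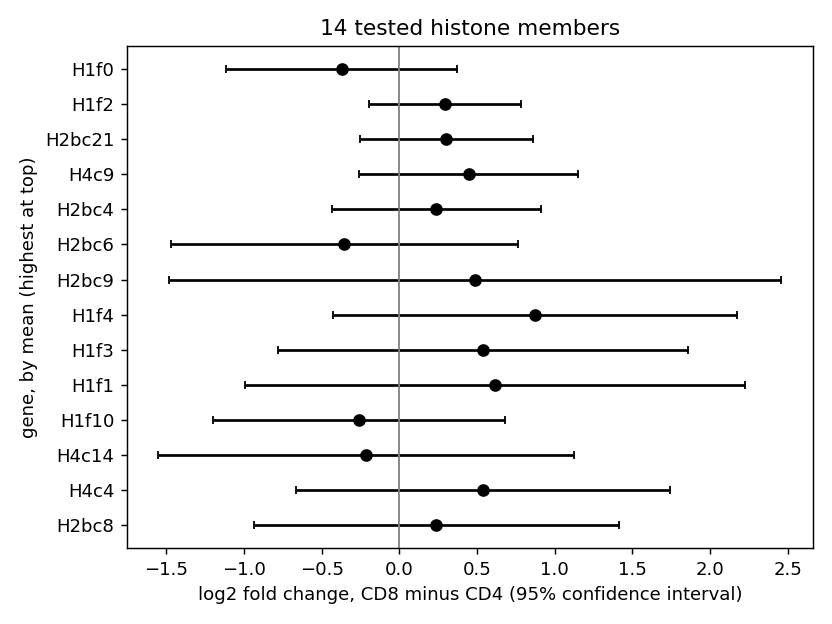
Log2 fold change, CD8 minus CD4, of the 14 tested members (points) with 95% confidence intervals (bars), ordered by mean with the highest at the top. Each interval spans 0; the widest, of H2bc9, runs from -1.48 to 2.46.

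Among the tested members, 10 of 14 had a log2 fold change above 0 with a median of 0.30, beside 55.6% above 0 and a median of 0.04 for all genes tested. Scaled to the T cell receptor genes, 12 members passed the filter, with a median of 0.98. The median of all genes then moved to 0.72, and 0 of the 12 members were called against 0.813% of all genes. With library weights the median of the members was -0.0035, and 0 were called against 2.62% of all genes. The highest fold changes belonged to linker histone genes of cluster 1 and H4c4. H1f4 was at 13.4, 13.9 and 25.6 in CD8 387, 389 and 395 and at 4.28, 15.6 and 9.58 in CD4 385, 393 and 395, a log2 fold change of 0.87 (SE 0.56). H1f1 was at 4.20, 18.5 and 26.7 in CD8 and 10.3, 5.57 and 9.58 in CD4 libraries, with a log2 fold change of 0.61 (SE 0.69). That of H1f1 was 0.37 to 1.33 without CD8 387, CD4 393 or CD4 395. Without any other library, its highest CD8 395 among them, H1f1 fell below the filter and was not fitted. H1f3 had a log2 fold change of 0.54 (SE 0.57), from 7.55, 12.0 and 31.4 in CD8 and 10.3, 8.91 and 9.58 in CD4 libraries. In all 3 genes CD8 395 was the highest library and CD8 387 lay inside the CD4 range or below it.

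H4c4, another H4 gene, was at 9.23, 13.0 and 16.3 in CD8 387, 389 and 395 and at 5.14, 14.5 and 7.45 in CD4 385, 393 and 395 (log2 fold change 0.54, SE 0.52). At the other end stood H2bc6, at 17.6, 31.5 and 11.6 in CD8 and 18.8, 21.2 and 35.1 in CD4 libraries, with a log2 fold change of -0.35 (SE 0.48). CD4 395 was its highest library and CD8 395 its lowest. The replacement linker histone H1f10 varied little, with 10.1, 11.1 and 11.6 in CD8 and 16.3, 13.4 and 10.6 in CD4 libraries (log2 fold change -0.26, SE 0.40). H2bc9 was at 19.3, 24.1 and 9.30 in CD8 and at 23.1, 2.23 and 23.4 in CD4 libraries. CD4 393 was far below its other libraries, and without it the log2 fold change of H2bc9 was -0.48, against 0.49 with all 6 libraries. By edgeR and DESeq2 on all 6 libraries, that of H2bc9 was 0.109 and 0.108.

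The classes differed in how they were spread. H1 genes summed to 498, 767 and 587 in CD8 387, 389 and 395 and to 587, 757 and 489 in CD4 385, 393 and 395. H2B genes summed to 315, 465 and 335 in CD8 and to 318, 260 and 327 in CD4 libraries, most of it from H2bc21. H4 genes summed to 184, 230 and 205 in CD8 and to 189, 138 and 130 in CD4 libraries. H2A genes, all of them low, summed to 23.5, 36.1 and 47.6 in CD8 and to 12.0, 18.9 and 24.5 in CD4 libraries, and H3 genes to 17.6, 33.3 and 45.3 in CD8 and to 26.5, 14.5 and 29.8 in CD4 libraries. In every class the sums of the groups overlapped. In the H2A and H3 classes CD8 395 was the highest library, while in H1, H2B and H4 it was CD8 389.

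The sum of the 36 low members was 177, 288 and 358 normalised reads in CD8 387, 389 and 395 and 175, 187 and 221 in CD4 385, 393 and 395. CD8 395 and CD8 389 were above every CD4 library and CD8 387 was below CD4 393 and 395. The means were 274 ± 91.2 in CD8 and 194 ± 24.2 in CD4 libraries (SD, n = 3 each), and without CD8 395 the CD8 mean was 232. Low members supplied 29.4% of all histone reads in CD8 395, against 17.1% and 18.8% in CD8 387 and 389 and 15.4%, 15.8% and 22.1% in CD4 385, 393 and 395.

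**Figure D4:**
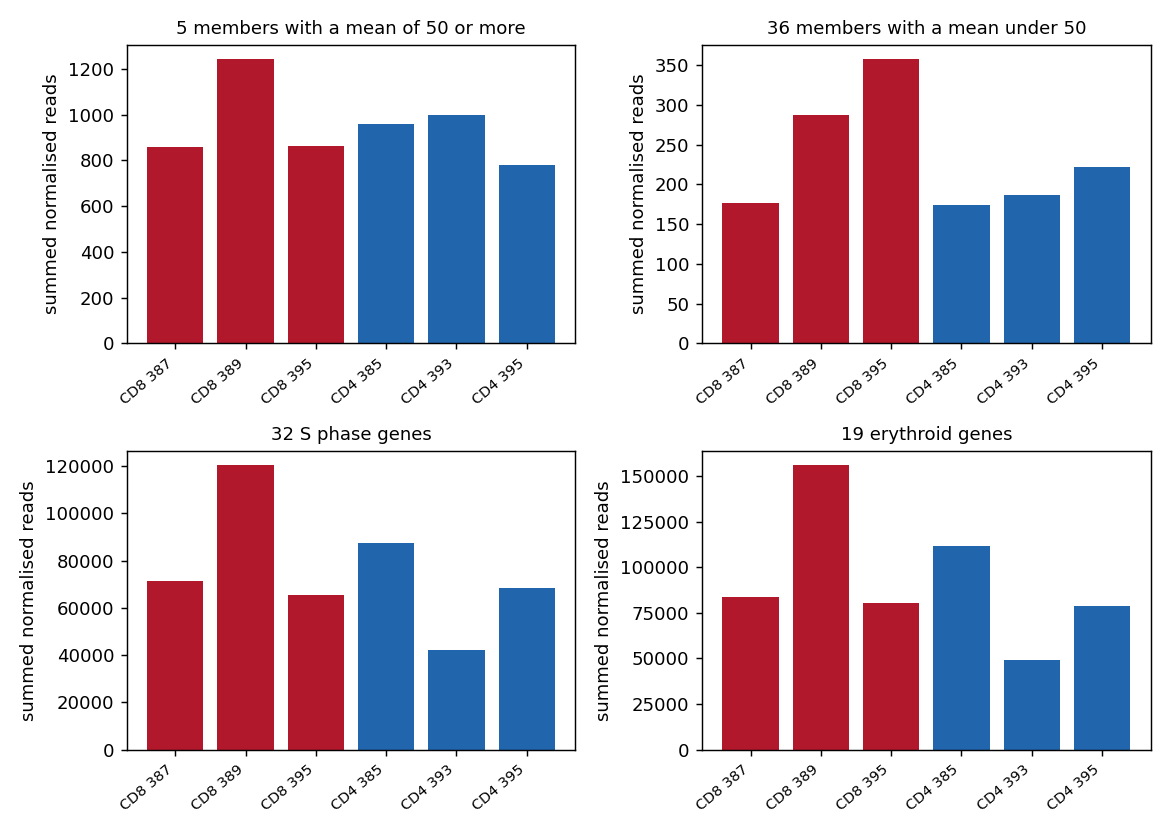
Sums of normalised reads in each library (CD8 left, CD4 right; each bar is 1 library, axes from 0) for the 5 high members, the 36 low members, 32 S phase genes and 19 erythroid genes. CD8 395 is highest for the low members at 358, whereas CD8 389 is highest in the other panels.

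Gene by gene, 20 of the 36 low members (55.6%) had their highest value in CD8 395, as did 23.2% of all genes with a mean under 50. In all, 31 of the 36 (86.1%) were highest in a CD8 library, against 48.7% of genes with a mean under 50. Over all 41 members, 35 were highest in a CD8 library, which is 85.4% against 55.0% of all genes in the table. With no filter, 34 of 41 members (82.9%) had a log2 fold change above 0, against 53.8% of all genes and 48.2% of the 6783 genes with a mean under 50. Leaving out CD8 395, 31 of 41 (75.6%) did, against 54.2% of all genes, and 27 of the 36 low members (75.0%), against 49.0% of genes with a mean under 50. Members in the same cluster are not independent of each other, and no test was made of these counts.

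The H3 genes show the scale of these values. H3c7 was at 2.52, 2.78 and 13.9 normalised reads in CD8 387, 389 and 395 and at 0.856, 0 and 2.13 in CD4 385, 393 and 395. H3c8, the H3 gene with the highest level per kb, was at 3.36, 6.48 and 5.81 in CD8 and at 4.28, 3.34 and 5.32 in CD4 libraries. H3c4 was at 2.52, 8.33 and 4.65 in CD8 and 8.56, 3.34 and 3.19 in CD4 libraries, and H3c6 at 2.52, 3.70 and 8.13 and 5.14, 3.34 and 6.38. Apart from H3c7 in CD8 395, these are at most 10 reads in any library.

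Among H2A genes, H2ac6 was at 7.55, 9.25 and 18.6 in CD8 387, 389 and 395 and at 4.28, 12.3 and 0 in CD4 385, 393 and 395. Its count of 0 in CD4 395 allows a value of up to 3.19 normalised reads there. H2ac14 was at 3.36, 9.25 and 4.65 in CD8 and at 0.856, 0 and 6.38 in CD4 libraries. H2bc3 of the H2B class was at 22.1 in CD8 395, against 3.36 and 4.63 in CD8 387 and 389 and 5.99, 5.57 and 3.19 in CD4 385, 393 and 395. H4c14, the H4 gene of cluster 2, was also highest in CD8 395, with 8.39, 4.63 and 19.8 in CD8 and 10.3, 13.4 and 9.58 in CD4 libraries.

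The ranges of CD8 and CD4 libraries did not overlap for 4 of the 41 members, all higher in CD8, and this was so for 5.05% of all genes in the table. These were H4c12 at 8.61 ± 2.88 in CD8 and 4.62 ± 0.461 in CD4 libraries, H3c7 at 6.41 ± 6.52 and 0.995 ± 1.07, H4c2 at 3.13 ± 0.716 and 1.74 ± 0.765, and H3c11 at 3.01 ± 1.46 and 1.01 ± 0.137 normalised reads (SD, n = 3 each). They were named after their values were seen, and each was below the filter of the test. For H4c2 the ranges part only after scaling, since 2 reads were counted in CD8 395 as in CD4 393 and 395. For H4c12, H3c7 and H3c11 the ranges part by 1 read. The lowest CD8 and the highest CD4 counts were 7 and 6 for H4c12, 3 and 2 for H3c7, and 2 and 1 for H3c11. No member was lower in all CD8 than in all CD4 libraries, a pattern held by 5.78% of all genes. Among the 14 tested members the count without overlap in either direction was 0, against 10.2% of tested genes.

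**Figure D5:**
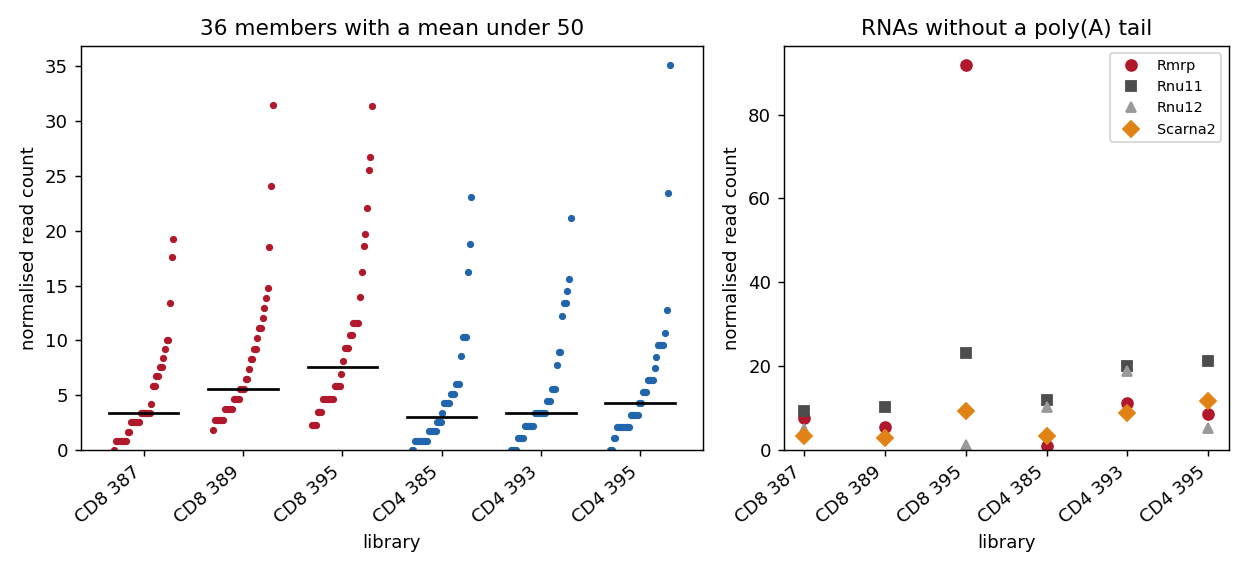
Left, normalised reads of the 36 low members in each library (points, 1 per gene; line, median), CD8 libraries left of CD4 libraries. Right, 4 small RNAs without a poly(A) tail (Rmrp, Rnu11, Rnu12 and Scarna2) in the same libraries. CD8 395 has the highest median of the low members, 7.55, and the highest value of Rmrp, 91.8.

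Other RNAs that lack a poly(A) tail, in all or only some of their forms, were read beside the low members. The small ones among them were named after their values were seen. Rmrp, the RNA of the RNase MRP complex, was at 7.55, 5.55 and 91.8 normalised reads in CD8 387, 389 and 395 and at 0.856, 11.1 and 8.51 in CD4 385, 393 and 395. It too was highest in CD8 395. The spliceosomal Rnu11 was at 9.23, 10.2 and 23.2 in CD8 and 12.0, 20.1 and 21.3 in CD4 libraries, with CD8 395 and CD4 395 close together. Rnu12, of the same minor spliceosome, was at 5.03, 3.70 and 1.16 in CD8 and 10.3, 18.9 and 5.32 in CD4 libraries, so CD8 395 was its lowest library. The long noncoding Malat1, which ends in a triple helix, was at 10186, 10320 and 11603 in CD8 and at 8301, 18848 and 11771 in CD4 libraries. Of 14 listed RNAs of this kind 6 are in the table and 3 passed the filter; 0 were called by limma, edgeR or DESeq2, and their median log2 fold change was -0.20. Among these 4, Rmrp and Rnu11 were highest in CD8 395 and Rnu12 and Malat1 were not. Of the others in the table, Scarna2 was only plotted, and Neat1 had a log2 fold change of 0.0022. Whether RNA quality or tail selection moved with CD8 395 was not tested.

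The genes that make and process histone messages spanned a wide range of means, not divided by length, up to 4638 normalised reads for Srrt of the cap-binding complex and down to 25.6 for Zfp473, which takes part in U7-dependent cleavage. None of 17 tested genes of this list was called by limma, edgeR or DESeq2, with a median log2 fold change of 0.08 and 14 above 0. Slbp, which binds the hairpin, was at 2078, 3631 and 1963 in CD8 387, 389 and 395 and at 2455, 1230 and 1924 in CD4 385, 393 and 395 (log2 fold change 0.45, SE 0.32, limma adjusted p = 0.946). It was highest in CD8 389 and lowest in CD4 393, as was the S phase sum. Npat, the coactivator that switches on the histone clusters, was at 739, 963 and 625 in CD8 and 686, 498 and 697 in CD4 libraries (0.30, SE 0.22). Lsm11 of the U7 particle was at 366, 275 and 301 in CD8 and 428, 351 and 416 in CD4 libraries, and had the lowest log2 fold change of the list, -0.35 (SE 0.19). Lsm10 of the same particle went the other way, with a log2 fold change of 0.44 (SE 0.23, limma adjusted p = 0.946).

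Histone chaperones and acetylation factors likewise gave 0 calls among 21 tested genes, with 19 above 0 and a median of 0.24. Ssrp1, a subunit of the FACT chaperone, was at 5516, 8219 and 5158 in CD8 387, 389 and 395 and at 6353, 4062 and 5372 in CD4 385, 393 and 395. Nap1l1, a chaperone of H2A and H2B, was at 5170, 7581 and 5636 in CD8 and 5343, 3905 and 5289 in CD4 libraries. Chaf1a, of the complex that places H3 and H4 on new DNA, was at 1446, 2321 and 1125 in CD8 and 1775, 781 and 1260 in CD4 libraries. All 3 were highest in CD8 389 and lowest in CD4 393.

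The variants listed as polyadenylated gave 0 calls among 8 tested genes, all 8 above 0 with a median of 0.12. H2az1 was at 3737, 4971 and 3858 in CD8 387, 389 and 395 and at 3898, 2573 and 3973 in CD4 385, 393 and 395 (log2 fold change 0.28, SE 0.22). H3f3b was at 5434, 8831 and 6459 in CD8 and at 5555, 6581 and 6830 in CD4 libraries (0.10, SE 0.22). The sum of the 41 clustered genes came to 5.44%, 5.93% and 5.57% of the summed variants in CD8 libraries and to 5.61%, 6.50% and 4.73% in CD4 libraries. This ratio varied 1.37-fold between libraries, whereas the ratio of histone to S phase sums varied 2.22-fold.

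Of the 32 S phase genes, 0 were called and 31 were above 0, with a median of 0.40, and all 20 genes of G2 and M phase were above 0 with 0 called and a median of 0.46. The histone sum was 1.46%, 1.27% and 1.86% of the S phase sum in CD8 387, 389 and 395 and 1.30%, 2.83% and 1.46% in CD4 385, 393 and 395. CD4 393, with the lowest S phase sum, gave the highest ratio, and its histone sum of 1188 was the highest of the CD4 group through H1f0 at 433. Of the cell type lists, erythroid genes had 0 of 19 called, all above 0 with a median of 0.47, and T cell receptor genes 0 of 15 called, none above 0, with a median of -0.74. B and plasma cell genes had 0 of 11 called and a median of 0.01, macrophage and monocyte genes 0 of 10 by limma, 1 by DESeq2 and a median of -0.09, and neutrophil genes 0 of 9 and a median of 0.85. In the dendritic list limma called 1 of 10, Xcr1, a chemokine receptor of cross-presenting dendritic cells, at 456, 513 and 492 in CD8 and 16.3, 14.5 and 7.45 in CD4 libraries (log2 fold change 5.21, SE 0.33, limma adjusted p = 0.0042). DESeq2 called 7 of these 10, whose median was 2.20.

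Some reads of the members could match several genes. Members share stretches of sequence with other genes: of the runs of 50 bases in the annotated transcripts of a member, between 0% and 93.1% also occurred in another gene, with a median of 40.1%. For H1f0 and H2bc21 the share was 0%, for H1f2 8.54%, for H4c9 28.9% and for H2bc4 30.1%, and for 12 members it was over 50%. In H2A genes it ran from 14.1% in H2ac6 to 93.1% in H2ac14. In H3 genes it ran from 24.8% in H3c4 to 87.6% in H3c11. Some low members share little, such as H4c14 at 1.01%. Whether sharing lowered any value was not tested. No source used here says how reads that match several genes were counted. In addition, 5 members overlap another annotated gene on the same strand and 11 on the other strand.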

How the data were processed

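Per the labels' protocols, 500 ng of RNA per library went into the TruSeq stranded mRNA kit. The authors deposited a signal per gene and library, counts divided by a size factor, called normalised reads here (tools per the submitters' processing notes: GRCm39 as the build, DESeq2, featureCounts 2.0 and STAR 2.7.5c, without roles). No source used here gives the annotation, strand setting or treatment of multiply matching reads. All deposited values (100%) were whole multiples of 1 read within a tolerance of 0.001, so reads were recovered from them. No pair of libraries agreed within sampling noise (lowest chi-square per degree of freedom 25.4).

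CD8 was compared with CD4 by a two-sided limma-trend test (limma 3.58.1, R 4.3.3) on log2(value + 1). The added 1 draws the changes of low genes towards 0. They can still lie farther from 0 than by edgeR or DESeq2, as for H2bc9. Genes that reached 10 in 3 libraries or more were tested, Benjamini-Hochberg adjusted over all 13877 genes, threshold 0.05. Alternatives were edgeR 4.0.16 and DESeq2 1.42.0 on recovered reads, 2 pseudocounts, 2 filters, 3 scalings, 2 variance models and leaving out each library. Fits were tested on simulated data.

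Values per library were given for the 12 members with the highest mean, the top 2 of each class and the 3 tested members with the highest and the 3 with the lowest log2 fold change, besides others named as examples. Of the context lists, called genes and genes among the 2 highest means could be named, and genes of histone processing, chaperones and variants by their known role. The members, the lists and this rule were chosen with earlier results of these data known. GENCODE M21 (GRCm38) served only for names, lengths, overlaps and sequences; all 41 members matched, and no coordinates are given because the builds differ.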

Additional observations from a re-analysis of the deposited data

How the results depend on the processing

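No histone member was called under any of the 17 alternatives. The count of all genes called, 68, was 104 with a pseudocount of 5, 112 scaled to the T cell receptor list, 363 with library weights and 319 with DESeq2. Leaving out 1 library it ranged from 7 to 46: 9, 40 and 7 without CD8 387, 389 and 395, and 40, 19 and 46 without CD4 385, 393 and 395. The context genes called, 1, were 2 with a pseudocount of 5, with no filter or scaled to the T cell receptor list, 8 with library weights or DESeq2, and 1 to 4 leaving out 1 library (4 without CD4 395). The median log2 fold change of the 14 tested members, 0.30, was 0.98 scaled to the T cell receptor list, where 12 members passed the filter. It was 0.15 to 0.39 leaving out 1 library, where 10 to 13 members passed. These medians are therefore over different sets of members. The mean histone sum, 1263 in CD8 and 1107 in CD4 libraries, was 1975 and 905 scaled to that list, 1001 and 771 without H1f0 and H1f10, and 1012 and 785 without H1f0. Leaving out 1 library it ranged from 1129 to 1376 in CD8 and from 1066 to 1160 in CD4 libraries. Log2 fold changes changed sign, uncalled throughout, for H1f0 (0.32), H1f10 (0.38), H2bc6 (0.32) and H4c14 (0.39) scaled to the T cell receptor list. They also did so for H1f1 (-0.63), H1f3 (-0.11) and H2bc4 (-0.029) with library weights, for H2bc9 (-0.48) without CD4 393 and for H4c14 (0.22) without CD8 389. Leaving out 1 library, H2bc9 ranged from -0.48 to 0.98. H4c14 ranged from -0.30 to 0.22 without CD8 387, CD8 389 or CD4 395. Without any other library, its highest CD8 395 among them, H4c14 fell below the filter and was not fitted. The cause of the sign changes was not tested. With no filter, 31 to 35 of 41 members were above 0 leaving out 1 library, an alternative added after the data were seen, as was the low-member mean without CD8 395. No paired analysis was possible because the groups share only the number 395. Depth limits the 27 members that averaged under 10 reads per library.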

Other observations

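A few other histone genes, neither members nor on the list of variants, are in the table. H2aw averaged 39.3 ± 12.6 normalised reads in CD8 and 34.8 ± 3.61 in CD4 libraries, H2bu2 15.6 ± 6.93 and 22.0 ± 2.26, and H4f16 10.6 ± 6.78 and 11.1 ± 5.22 (SD, n = 3 each).

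Small RNAs, taken by their RefSeq type in a choice made after values were seen, filled 113 rows of the table. They summed to 1496, 1673 and 1919 normalised reads in CD8 387, 389 and 395 and to 1300.3, 1678 and 1759 in CD4 385, 393 and 395. Of these rows, 29 (25.7%) were highest in CD8 395, against 19.1% of all genes in the table and 23.2% of genes with a mean under 50.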
